A study of Homo sapiens with 6 samples.

Results

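The 6 genes described here are MYCN and 5 of its neighbours on the short arm of chromosome 2: MYCNOS, GACAT3, DDX1, NBAS and FAM49A. They were chosen by symbol as genes next to MYCN that are often amplified with it in neuroblastoma, and they are 6 of the 36601 genes in the files. All 6 passed the filter on low counts. Single-cell RNA-seq was made with Seq-Well S3, in which each cell is loaded into a small well with a bead that carries its barcode. All libraries come from SK-N-BE(2)-C, a human neuroblastoma cell line and clonal subline with amplified MYCN. There were 2 libraries for each of 3 treatments of this 1 line: DMSO, the solvent control; E6R; and TSA, read as trichostatin A, which blocks the enzymes called histone deacetylases (HDACs). In its title the series names a compound that inhibits an HDAC complex without acting on its enzyme. Neither the make-up of E6R nor any dose or time is given in the sources used here. The name of the deposited data of TSA replicate 2, and of no other library, carries the tag reWTA, which the labels do not explain. Nothing says that the libraries of a group came from separate cultures, so p-values measure the spread between these libraries, which may be technical.

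MYCN encodes N-Myc, a transcription factor that binds DNA with its partner MAX and drives growth and ribosome production in neural crest cells. Amplification of its locus marks aggressive neuroblastoma, and the amplified segment often takes in DDX1 and NBAS. HDACs take acetyl groups off histones and other proteins, as part of larger complexes that repress transcription.

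After removal of small barcodes the libraries held 17589 cells and 4206366 to 26180262 unique molecular identifiers (UMIs, counts of original RNA molecules) in cells, with the DMSO libraries the shallowest. Cells with 4000 or more UMIs held 20.8% and 45.5% of the UMIs in cells of the DMSO libraries, 67.0% and 82.8% under TSA, and 79.7% and 85.5% under E6R, so the sums rested on deeper cells under both compounds. The mitochondrial share of UMIs was 1.51% and 1.55% under E6R and 5.83% to 9.71% in the other 4 libraries. The deepest 1% of cells in E6R replicate 2 held 22.5% of its UMIs. Libraries shared 11 to 58 cell barcodes per pair, at most 2.11% of the smaller library's cells. All 10 markers of adrenergic neuroblastoma cells, HAND2 and GATA3 among them, had UMIs in all 6 libraries, while summed blood markers stayed at or below 4.02 CPM (UMIs of a gene scaled to the same total in every library) and summed glial markers at or below 16.5.

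The promoters of MYCN, GACAT3 and NBAS are printed because these 3 genes differed in how they moved: MYCN was highest under E6R, GACAT3 was highest under DMSO, and NBAS was highest under TSA. Each run is the 250 bases before the RefSeq transcript start (GRCh38.p14), read 5′ to 3′ on the strand of the gene. The windows are chr2:15940300-15940549 on the plus strand for MYCN, chr2:16050177-16050426 on the plus strand for GACAT3 and chr2:15561335-15561584 on the minus strand for NBAS. Capitals mark E2F-type matches, defined as TTTNGCGC on either strand.
MYCN promoter: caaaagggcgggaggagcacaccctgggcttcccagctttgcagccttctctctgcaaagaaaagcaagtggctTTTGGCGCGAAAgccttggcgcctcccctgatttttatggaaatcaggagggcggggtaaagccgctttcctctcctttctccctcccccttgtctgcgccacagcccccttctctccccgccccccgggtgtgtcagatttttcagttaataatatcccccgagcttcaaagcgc
GACAT3 promoter: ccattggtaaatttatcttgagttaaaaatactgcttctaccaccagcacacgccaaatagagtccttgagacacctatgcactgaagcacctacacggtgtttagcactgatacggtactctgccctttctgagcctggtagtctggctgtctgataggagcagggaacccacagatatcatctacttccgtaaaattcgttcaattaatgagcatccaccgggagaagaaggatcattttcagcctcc
NBAS promoter: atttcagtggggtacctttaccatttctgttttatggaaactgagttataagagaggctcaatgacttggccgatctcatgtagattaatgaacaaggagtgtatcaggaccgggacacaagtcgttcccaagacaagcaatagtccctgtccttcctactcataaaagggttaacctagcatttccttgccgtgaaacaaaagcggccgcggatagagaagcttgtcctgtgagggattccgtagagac
The MYCN window held 2 overlapping E2F-type matches, 1 on each strand, beginning 176 and 172 bases before the start. Of 35116 RefSeq promoter windows of this length, 1.51% held a match. The motifs were chosen with the expression values known. The E-box CACGTG, the site that MYC proteins and MAX bind, was found in 6.34% of all windows and in none of these 3. The MYCN window also overlaps an exon of the antisense gene MYCNOS. GC content was 57.2% for MYCN, 45.6% for GACAT3 and 45.6% for NBAS. A match describes letters, not a site in use. Promoters were matched for 5 of the 6 genes.

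MYCN was highest under E6R, where it stood well above TSA; its E6R level was also above DMSO and its TSA level below, but neither difference from DMSO passed the test. MYCN (ENSG00000134323) lies on GRCh38 chromosome 2 from 15940564 to 15947007, on the plus strand. Levels are given as CPM, scaled by TMM, a correction for differences in library composition. The DMSO replicates had 394 and 313 CPM of MYCN. Under TSA the values were 215 and 291, and under E6R they were 733 and 657. No group overlapped another: E6R was highest, DMSO came next and TSA was lowest, with the nearest libraries being DMSO replicate 2 and TSA replicate 2. Such sums cannot tell fewer cells with MYCN RNA from less MYCN RNA per cell. DMSO averaged 353 ± 57.4 CPM (SD, n = 2), TSA 253 ± 54.0 and E6R 695 ± 53.4.

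MYCN differed past the threshold between E6R and TSA, an adjusted p of 0.05 in edgeR's quasi-likelihood test over 16763 genes. The 3 comparisons share libraries, so they are not independent, and E6R and TSA are set side by side with their doses and times unknown. Its level was 2.75 times as high under E6R, a log2 difference of 1.46 ± 0.23 (SE) with adjusted p = 0.00273. This call held in all 22 alternative analyses, where the difference lay between 1.18 and 1.71, and in each of the 4 fits without 1 of the libraries compared. Against DMSO the E6R level was 1.97 times as high (log2 0.98 ± 0.23, edgeR adjusted p = 0.205), which did not pass. The unadjusted p was 0.00301, and 3.96% of all tested genes had a larger fitted rise. DESeq2 called the same difference with adjusted p = 0.0165, and edgeR without the low-count filter with 0.00127. The direction held in all 22 alternatives, from 0.60 to 1.29. The TSA level was 0.715 times that of DMSO (log2 -0.48 ± 0.23, edgeR adjusted p = 0.148), also not past the threshold. Scaling by total counts, which shifts the median of all genes in that comparison from -0.01 to -0.32, gave -0.80 with adjusted p = 0.0323.

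**Figure D1:**
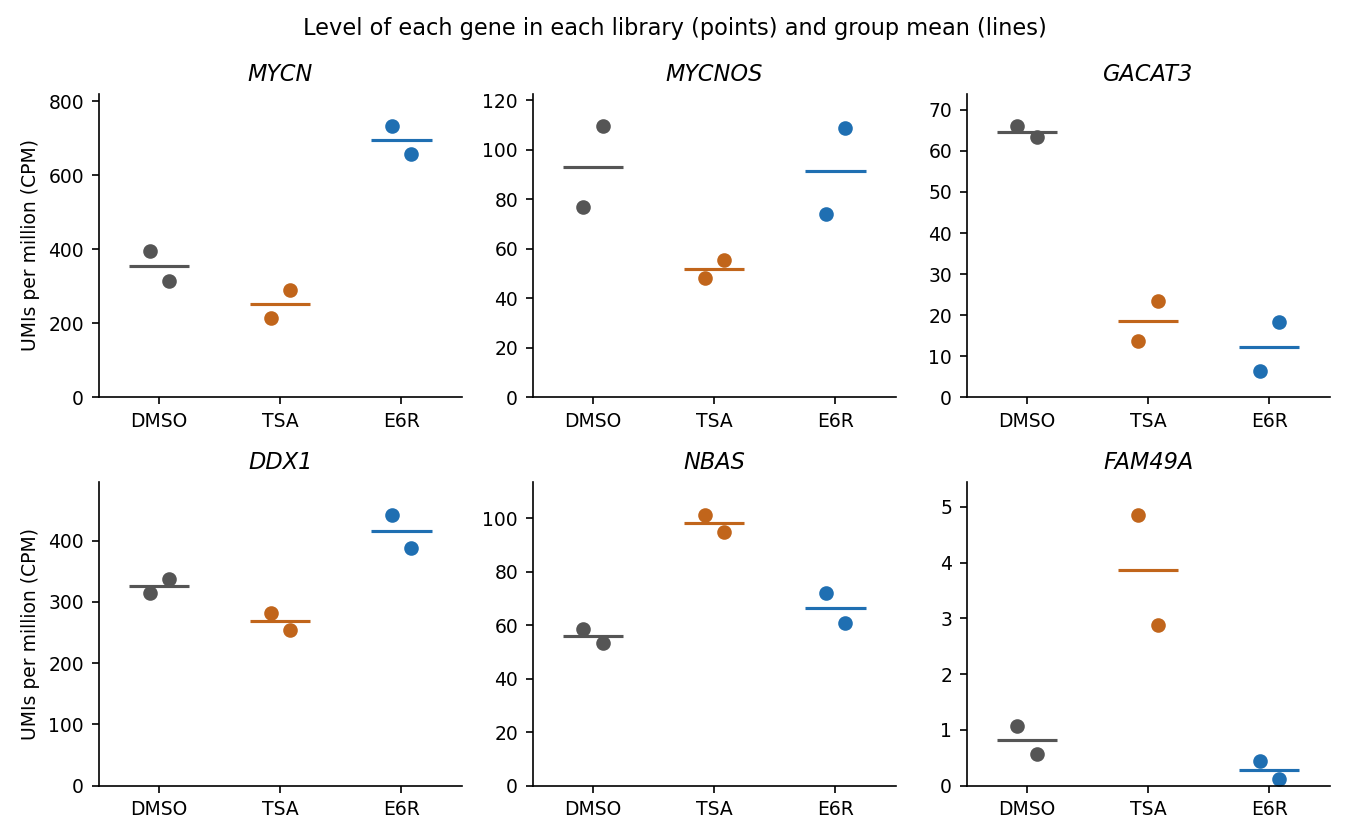
Level of each of the 6 genes in CPM (y axes, each from 0) by treatment (x axes); points are the 2 libraries of a group and lines their mean. MYCN sits at 657 and 733 under E6R, above the 4 other libraries, while GACAT3 is at 63.3 and 66.1 under DMSO and at most 23.5 elsewhere.

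The same order appeared in the share of cells in which MYCN was seen. To count the same number of UMIs in every cell, each cell was thinned at random to 1000 UMIs. This left out the cells with fewer, 674 and 1450 under DMSO, 615 and 503 under TSA and 692 and 1718 under E6R. It does not match the depth that the cells had before thinning, so differences between shallower and deeper cells remain. A MYCN UMI was then present in 29.9% (95% exact binomial interval 27.3 to 32.6) and 29.4% (27.2 to 31.6) of the cells in the DMSO libraries. With TSA the shares were 17.1% (15.4 to 18.9) and 20.4% (18.9 to 21.9), and with E6R 41.4% (39.3 to 43.5) and 43.6% (41.6 to 45.7). The 3 groups did not overlap, and the E6R mean lay 12.9 percentage points above DMSO and 23.7 above TSA. Exact two-sided permutation tests gave p = 0.333 for each of these contrasts, the smallest that 2 libraries against 2 allow. Without thinning the DMSO libraries had 40.1% and 35.4%, the TSA libraries 38.0% and 41.5% and the E6R libraries 63.5% and 56.3%. DMSO and TSA then overlapped. The cells are of 1 line and offer no cell type without MYCN, so the background from free RNA was not measured. Intervals cover counting error only.

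**Figure D2:**
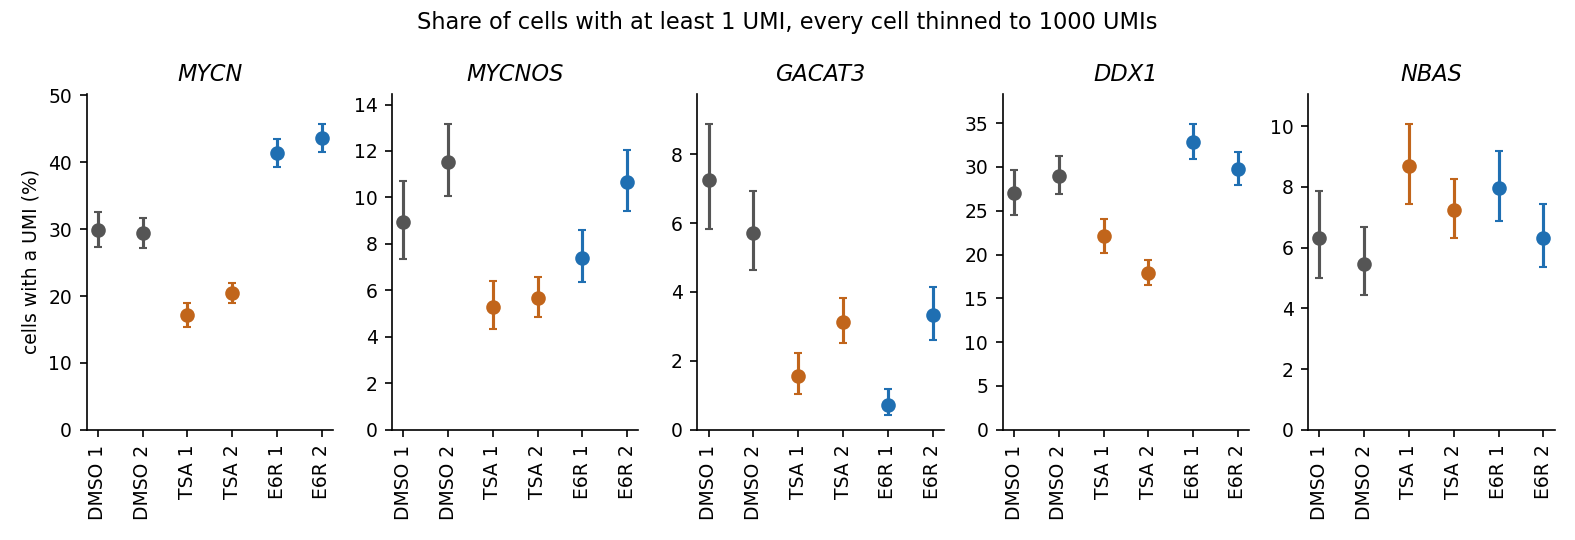
Share of cells with at least 1 UMI of a gene, in percent (y axes, each from 0), for each library (x axes) after thinning every cell to 1000 UMIs; bars are 95% exact binomial intervals. For MYCN the E6R libraries reach 41.4% and 43.6%, DMSO 29.4% and 29.9%, and TSA 17.1% and 20.4%.

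Without TMM scaling, cells called to each phase of the cell cycle showed the same order for MYCN. In cells called G1 the levels, as CPM without TMM scaling, were 525 and 286 under DMSO, 160 and 237 under TSA and 805 and 676 under E6R. In cells called S they were 465 and 325 under DMSO, 283 and 286 under TSA and 788 and 705 under E6R. In cells called G2M they were 428 and 346 under DMSO, 199.6 and 249 under TSA and 694 and 653 under E6R. Within every phase both E6R libraries were above the 4 others, and the DMSO and TSA libraries did not overlap. Cells of 1000 to under 2000 UMIs also kept the order, at 399 and 359 under DMSO, 182 and 217 under TSA and 578 and 585 under E6R. In these cells the edgeR difference between E6R and DMSO was smaller, 0.60 with adjusted p = 0.773, and that between E6R and TSA was 1.26 with adjusted p = 0.00665. With mitochondrial and ribosomal protein genes left out, the E6R and DMSO difference was 0.99, as large as with them.

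MYCNOS is transcribed on the strand opposite MYCN and overlaps its first part, from 15921037 to 15942249 (ENSG00000233718, annotated as antisense). The strand rule of the counting is not given, so UMIs from the overlap cannot be assigned to one gene or the other. MYCNOS stood at 76.7 and 109.6 CPM under DMSO, 48.1 and 55.4 under TSA and 74.0 and 108.7 under E6R. DMSO and E6R covered the same range, and both TSA libraries were below it. Its level was 1.80 times lower under TSA than under DMSO (log2 -0.85 ± 0.26, edgeR adjusted p = 0.0441) and 1.77 times higher under E6R than under TSA (log2 0.82 ± 0.26, edgeR adjusted p = 0.0394). Between E6R and DMSO the log2 difference was -0.03 ± 0.26 (edgeR adjusted p = 0.968), and its sign changed in 7 of 22 alternatives. The call against DMSO was lost without any 1 of the 4 libraries (adjusted p 0.0552 to 0.237). The call between E6R and TSA was lost without TSA replicate 1, TSA replicate 2 or E6R replicate 2, with adjusted p up to 0.196. Within libraries, thinned counts of MYCN and MYCNOS correlated across cells with r between -0.02 and 0.03, a description only, since sparse counts and shared depth limit it. MYCNUT, a further noncoding gene that overlaps MYCNOS, had 0 UMIs in the cells of all 6 libraries.

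DDX1 and NBAS lie next to each other on the side of lower coordinates. DDX1 (ENSG00000079785; 15591178 to 15631111) encodes a DEAD-box RNA helicase and starts 349 kb from the MYCN start. It had 314 and 337 CPM under DMSO, 282 and 254 under TSA and 442 and 388 under E6R. The order of groups was that of MYCN, with no overlap, but over a narrower span. Its level was 1.55 times as high under E6R as under TSA (log2 0.63 ± 0.19, edgeR adjusted p = 0.0321). That call was lost without TSA replicate 1, TSA replicate 2 or E6R replicate 1, with adjusted p up to 0.199. The log2 differences from DMSO were 0.35 ± 0.19 for E6R (edgeR adjusted p = 0.376) and -0.28 ± 0.19 for TSA (0.291). The thinned share of cells with a DDX1 UMI was 27.0% and 29.01% in the DMSO libraries, 22.1% and 17.9% in the TSA libraries and 32.9% and 29.8% in the E6R libraries. In the same order, unthinned, it was 39.2% and 36.1%, 47.8% and 38.0%, and 58.3% and 44.5%.

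The ratio of MYCN to DDX1 UMIs compares both genes within a library and needs no scaling between libraries. It was 1.25 and 0.928 under DMSO, 0.762 and 1.15 under TSA and 1.66 and 1.69 under E6R. Both E6R libraries were above the other 4, whereas DMSO and TSA overlapped. The E6R ratio was 1.55 times that of DMSO and 1.79 times that of TSA, with p = 0.333 in exact two-sided permutation tests, the smallest possible. The TSA ratio was 0.866 times that of DMSO (p = 0.667, exact two-sided permutation test). Without DMSO replicate 1 or TSA replicate 1 the sign of this last difference turned, at 0.01 and 0.09 on the log2 scale against -0.21 with all libraries. 

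NBAS (ENSG00000151779; 15166909 to 15561330, minus strand) encodes a protein of vesicle transport between the Golgi and the endoplasmic reticulum. It was the one of the 6 that rose past the threshold under TSA. Its levels were 58.4 and 53.2 CPM under DMSO, 101 and 94.8 under TSA and 72.1 and 60.7 under E6R. TSA was highest and DMSO lowest, with no overlap between groups. NBAS rose 1.76 times under TSA (log2 0.81 ± 0.19, edgeR adjusted p = 0.0164) and was 1.48 times lower under E6R than under TSA (log2 -0.56 ± 0.19, edgeR adjusted p = 0.0457). Of 22 alternative analyses, 13 kept the call between TSA and DMSO and only 3 the call between E6R and TSA, with the direction unchanged in all. The E6R difference from DMSO was 0.25 ± 0.19 (edgeR adjusted p = 0.526). Leaving out any 1 of the 4 libraries compared ended each call, with adjusted p from 0.0603 to 0.132 for TSA and from 0.0708 to 0.213 for E6R against TSA. Relative to DDX1, NBAS stood at 0.186 and 0.158 under DMSO, 0.360 and 0.373 under TSA and 0.163 and 0.156 under E6R, with both TSA ratios above the other 4 (p = 0.333 for TSA against DMSO, exact two-sided permutation test). Thinned shares of cells with an NBAS UMI were 6.32% and 5.47% in the DMSO libraries, 8.69% and 7.24% in the TSA libraries and 7.96% and 6.33% in the E6R libraries. In the same order, unthinned, they were 12.0% and 7.63%, 27.9% and 17.9%, and 23.5% and 18.4%.

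GACAT3, a long noncoding RNA gene (ENSG00000236289; 16050427 to 16085801), starts 109.9 kb beyond the MYCN start. It was lower under both compounds. The DMSO libraries held 66.1 and 63.3 CPM, the TSA libraries 13.7 and 23.5, and the E6R libraries 6.26 and 18.4. Every treated library was below both DMSO libraries, and TSA and E6R overlapped. GACAT3 fell 3.48 times under TSA (log2 -1.80 ± 0.48, edgeR adjusted p = 0.0264), a call that was lost without any 1 of the 4 libraries (adjusted p 0.0691 to 0.174). Under E6R its level was 5.20 times lower than under DMSO (log2 -2.38 ± 0.49, edgeR adjusted p = 0.205, unadjusted p = 0.00124), which did not pass in edgeR. DESeq2 called it with adjusted p = 0.000979, as did edgeR without E6R replicate 2 (-3.33, adjusted p = 0.0437). The difference between E6R and TSA was -0.58 ± 0.47 (edgeR adjusted p = 0.356). It was -1.55 with adjusted p = 0.0096 when E6R replicate 2 was left out and 0.06 when E6R replicate 1 was. The gene overlaps the noncoding genes AC010145.1 and AC130710.1 on the other strand, with which its UMIs may be mixed.

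The level of GACAT3 depended on the depth of the cell, and the treated libraries held more of their UMIs in deep cells. In cells under 1000 UMIs GACAT3 stood at 194 and 116 CPM (without TMM scaling) under DMSO, 58.2 and 62.8 under TSA and 14.6 and 75.6 under E6R. In cells of 4000 UMIs or more it stood at 25.6 and 33.1, 7.36 and 12.8, and 5.09 and 12.6. In each library it was lower in the deepest cells than in the shallowest, and at both depths every treated library was below both DMSO libraries. In cells of 1000 to under 2000 UMIs the TSA difference was -0.86 (edgeR adjusted p = 0.220) and the E6R difference -1.26 (edgeR adjusted p = 0.773), both smaller than in the full sums and not past the threshold. The share of the change that depth carries was not tested. Thinned shares of cells with a GACAT3 UMI were 7.25% and 5.71% in the DMSO libraries, 1.57% and 3.12% in the TSA libraries and 0.728% and 3.32% in the E6R libraries. In the same order, unthinned, they were 12.3% and 9.23%, 6.08% and 7.11%, and 2.97% and 9.503%.

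GACAT3 was also higher in the barcodes left out for having under 500 genes than in cells. These may hold shallow cells, free RNA or both, which were not told apart. They held 12.2% to 41.6% of each library's UMIs and had 361 and 206 CPM of GACAT3 under DMSO, 144 and 107 under TSA and 64.2 and 96.0 under E6R. These levels were 2.98 to 11.3 times those of the cells of the same library. For MYCNOS the ratio was 1.41 to 2.78, for NBAS 0.743 to 1.17, for MYCN 0.721 to 0.989 and for DDX1 0.782 to 0.899. How much of the GACAT3 signal in cells is free RNA was not tested. In the small barcodes themselves the MYCN order was kept, at 318 and 338 under DMSO, 181 and 202 under TSA and 624 and 555 under E6R.

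**Figure D3:**
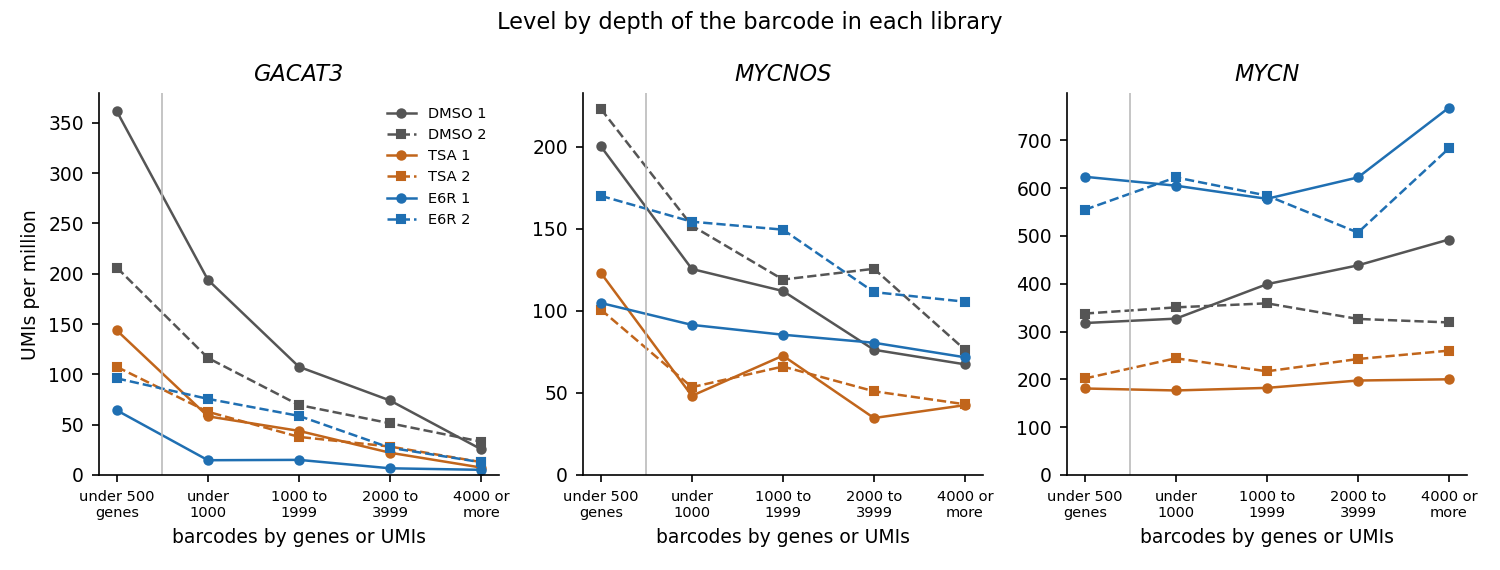
Level of GACAT3, MYCNOS and MYCN in CPM (y axes, from 0) in barcodes under 500 genes (left of the grey line) and in cells binned by their UMIs (x axes), 1 line per library, colored by treatment. GACAT3 drops from as much as 361 in small barcodes to at most 33.1 in the deepest cells, while MYCN under E6R is above the other libraries in every bin.

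FAM49A (ENSG00000197872; 16549459 to 16666331, minus strand), also named CYRIA, encodes a protein that binds RAC and restrains actin remodelling. It was nearly silent, with 5 and 3 UMIs in all cells of the DMSO libraries, 64 and 33 under TSA and 7 and 3 under E6R. As levels these are 1.06 and 0.574 CPM, 4.86 and 2.87 CPM, and 0.442 and 0.113 CPM. Both TSA libraries were above the 4 others. FAM49A was lower under E6R than under TSA by 3.86 ± 0.76 on the log2 scale (edgeR adjusted p = 0.00599), a fitted value that depends on the prior count at so few UMIs. Without TSA replicate 1 that adjusted p was 0.0591. The TSA difference from DMSO was 2.24 ± 0.76 (edgeR adjusted p = 0.0584) and that of E6R was -1.62 ± 0.87 (0.371). In thinned cells, a FAM49A UMI was present in 2 and 0 cells of the DMSO libraries, 14 and 7 of the TSA libraries and 2 and 1 of the E6R libraries. Here 0 of 1682 cells allows a share of up to 0.178%.

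Counted together, 3 of the 6 genes passed the test between TSA and DMSO, where 29.7% of all tested genes did. NBAS rose, beside 16.2% of all genes, and MYCNOS and GACAT3 fell, beside 13.5%. Between E6R and DMSO 0 of 6 passed, where edgeR called 0 of 16763 genes, 0%. At an unadjusted p under 0.05 edgeR had 2 of the 6 (MYCN and GACAT3), beside 2913 of all genes, 17.4%. DESeq2 called the same 2 of the 6, beside 338 of all 16763 genes. Between E6R and TSA 5 of 6 passed, where 38.2% of all genes did: MYCN, MYCNOS and DDX1 were higher, beside 18.7% of all genes, and NBAS and FAM49A lower, beside 19.5%. The median log2 differences over the 6 were -0.38, 0.11 and 0.03 in the 3 comparisons, against -0.01, 0.03 and -0.09 over all tested genes. Groups did not overlap for 6 of 6 genes between TSA and DMSO, 2 higher and 4 lower, beside 36.7% and 34.6% of all genes. They did not for 5 of 6 between E6R and DMSO, 3 higher and 2 lower, beside 24.6% and 22.7%, nor for 5 of 6 between E6R and TSA, 3 higher and 2 lower, beside 33.7% and 38.9%. The 6 genes of 1 locus thus had calls in both directions between TSA and DMSO and between E6R and TSA, and did not move as a block there. Between E6R and DMSO, where none passed in edgeR, only the fitted differences had both signs, 3 of them positive.

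The wider neighbourhood took in every annotated gene that starts within 5 Mb of MYCN. The files held 80 such genes beyond the 6, of which 35 were tested. Between TSA and DMSO 12 of the 35 passed (34.3%, beside 29.7% of all tested genes), 4 higher and 8 lower. Those with most change at a mean of 5 CPM or more were RHOB, a small GTPase gene (108 and 177 CPM under DMSO, 498 and 570 under TSA; log2 1.91, edgeR adjusted p = 0.00275), and WDR35, a cilium transport gene (log2 0.96, 0.0134). The falls were led by AC010745.1 (log2 -2.88, 0.0486), AC010745.2 (-2.09, 0.00504) and TRIB2, a pseudokinase gene (159 and 107 CPM under DMSO, 64.9 and 60.5 under TSA; -1.09, 0.0187). Between E6R and DMSO 0 of 35 passed in edgeR. At an unadjusted p under 0.05 edgeR had 11 of the 35, beside 17.4% of all tested genes. DESeq2 called 3 of the 35, beside 338 of all 16763 genes. Between E6R and TSA 12 of 35 passed (34.3%, beside 38.2% of all genes), 7 higher and 5 lower. Both shares past the adjusted threshold were near those of all genes. TRIB2 (289 and 202 CPM under E6R; log2 1.97, edgeR adjusted p = 0.00147), the syndecan gene SDC1 (1.69, 0.0169) and PUM2, an RNA-binding repressor of translation (1.53, 0.00355), were higher. SLC66A3 (-2.23, 0.015), RHOB (-1.79, 0.00213) and HS1BP3 (-0.85, 0.0403) were lower. Of these calls, RHOB and PUM2 between E6R and TSA and RHOB between TSA and DMSO held without any 1 of the libraries compared, as did TRIB2 between E6R and TSA; WDR35 and AC010745.1 lost theirs without each of the 4, with adjusted p up to 0.103 and 0.2501. Without TSA replicate 1 AC010745.2 had an adjusted p of 0.0504. TRIB2 lost its TSA call without DMSO replicate 1, TSA replicate 1 or TSA replicate 2 (up to 0.138). SDC1 and SLC66A3 lost theirs without TSA replicate 1 or TSA replicate 2 (up to 0.133 and 0.105), and HS1BP3 without either of these or E6R replicate 2 (up to 0.302).

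**Figure D4:**
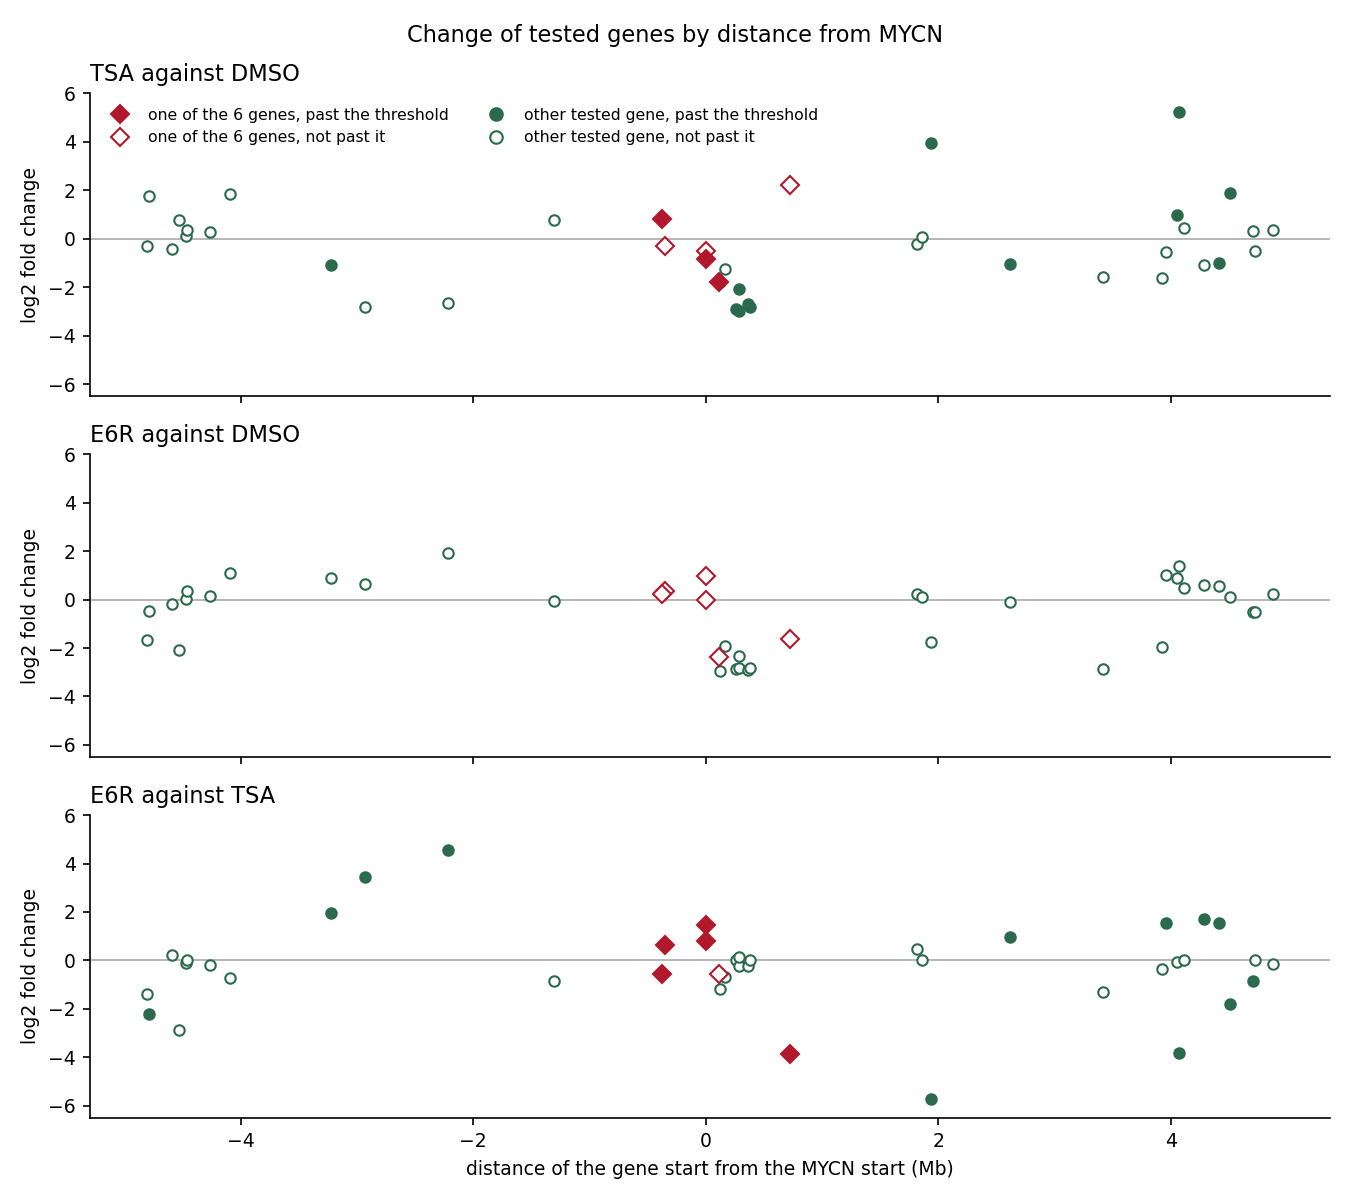
Fitted log2 fold change (y axes) of the tested genes within 5 Mb of MYCN against the distance of their start from the MYCN start in Mb (x axis), for 3 comparisons; diamonds are the 6 genes and filled symbols passed the test. Just right of 0, a group of noncoding genes lies below 0 against DMSO under both compounds.

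Between 100 and 400 kb beyond the MYCN start the files list 8 genes, all annotated as lincRNA and all tested: GACAT3, AC010145.1, AC130710.1 and AC010745.1 to AC010745.5. This stretch was singled out after its values were seen, and no test of it as a group was made. Their summed level was 145 and 181 CPM under DMSO, 33.1 and 52.2 under TSA and 16.2 and 45.0 under E6R. Both DMSO libraries were above the 4 treated ones. Under TSA 6 of the 8 fell past the threshold, beside 13.5% of all genes, 9.61% of all tested lincRNA genes and 29.2% of those with a mean of 5 to 100 CPM, and the fitted log2 differences of the 8 ran from -1.23 to -3.00. Under E6R none of the 8 passed in edgeR, and the fitted differences from DMSO ran from -1.91 to -2.96. Most levels were low: AC010745.2, the highest beside GACAT3, had 41.6 and 46.1 CPM under DMSO, 8.05 and 12.6 under TSA and 6.44 and 11.1 under E6R. Several of the 8 overlap each other on opposite strands, so their UMIs are not independent. Low values were also the more common direction among lincRNA genes at large: of 1082 tested, 66.2% had a negative fitted difference for TSA and 70.6% for E6R, with medians of -0.66 and -0.70, against 47.8% and 42.4% of 13789 protein-coding genes. Among the 154 lincRNA genes with a mean of 5 to 100 CPM these shares were 55.2% and 57.8%. In barcodes under 500 genes the summed level of the 8 was 817 and 556 CPM under DMSO, 336 and 213 under TSA and 172 and 253 under E6R.

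Among 26 MYC target genes, a list from general knowledge of the field, 25 were tested. Between E6R and DMSO none passed in edgeR. At an unadjusted p under 0.05 edgeR had 11 of the 25, beside 17.4% of all tested genes. DESeq2 called 3 of the 25, beside 338 of all 16763 genes. A positive fitted difference was seen for 24 of 25, with a median of 0.39 against 0.03 over all tested genes. Positive values were also the more common direction among protein-coding genes. Of all those tested 42.4% had a negative one, and of those with a mean of 5 to 100 CPM 37.0%. Many of the 25 targets, PTMA and NCL among them, averaged above 100 CPM, and no such share was taken at that level. Between TSA and DMSO 9 passed (36%, near the 29.7% of all genes), 3 higher and 6 lower, with a median of -0.37 against -0.01. ODC1, the first enzyme of polyamine synthesis (194 and 255 CPM under DMSO, 1102 and 1112 under TSA; log2 2.30, edgeR adjusted p = 0.000918), and BOP1 (1.03, 0.00824) rose. The third gene that rose was PPAT, an enzyme gene of purine synthesis, named after its values were seen (log2 0.81, edgeR adjusted p = 0.0135). HSPE1, a mitochondrial co-chaperone gene (257 and 376 CPM under DMSO, 139 and 119 under TSA; log2 -1.30, 0.00656), and NOP16 (-1.21, 0.00398), which with BOP1 serves ribosome assembly, fell. Between E6R and TSA 17 passed (68%, beside 38.2% of all genes), 15 higher and 2 lower, with a median of 0.83 against -0.09. HSPE1 (537 and 549 CPM under E6R; log2 2.08, 0.000874) and NOP16 (1.74, 0.000698) were highest, and the 2 lower were ODC1 (-2.18, 0.000533) and BOP1 (-0.76, 0.0183). Without TSA replicate 2, HSPE1 and NOP16 lost their TSA calls (adjusted p 0.0758 and 0.0534). BOP1 lost its TSA call without DMSO replicate 2 or TSA replicate 1 (up to 0.0817), and its call between E6R and TSA without TSA replicate 1, TSA replicate 2 or E6R replicate 1 (up to 0.139).

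**Figure D5:**
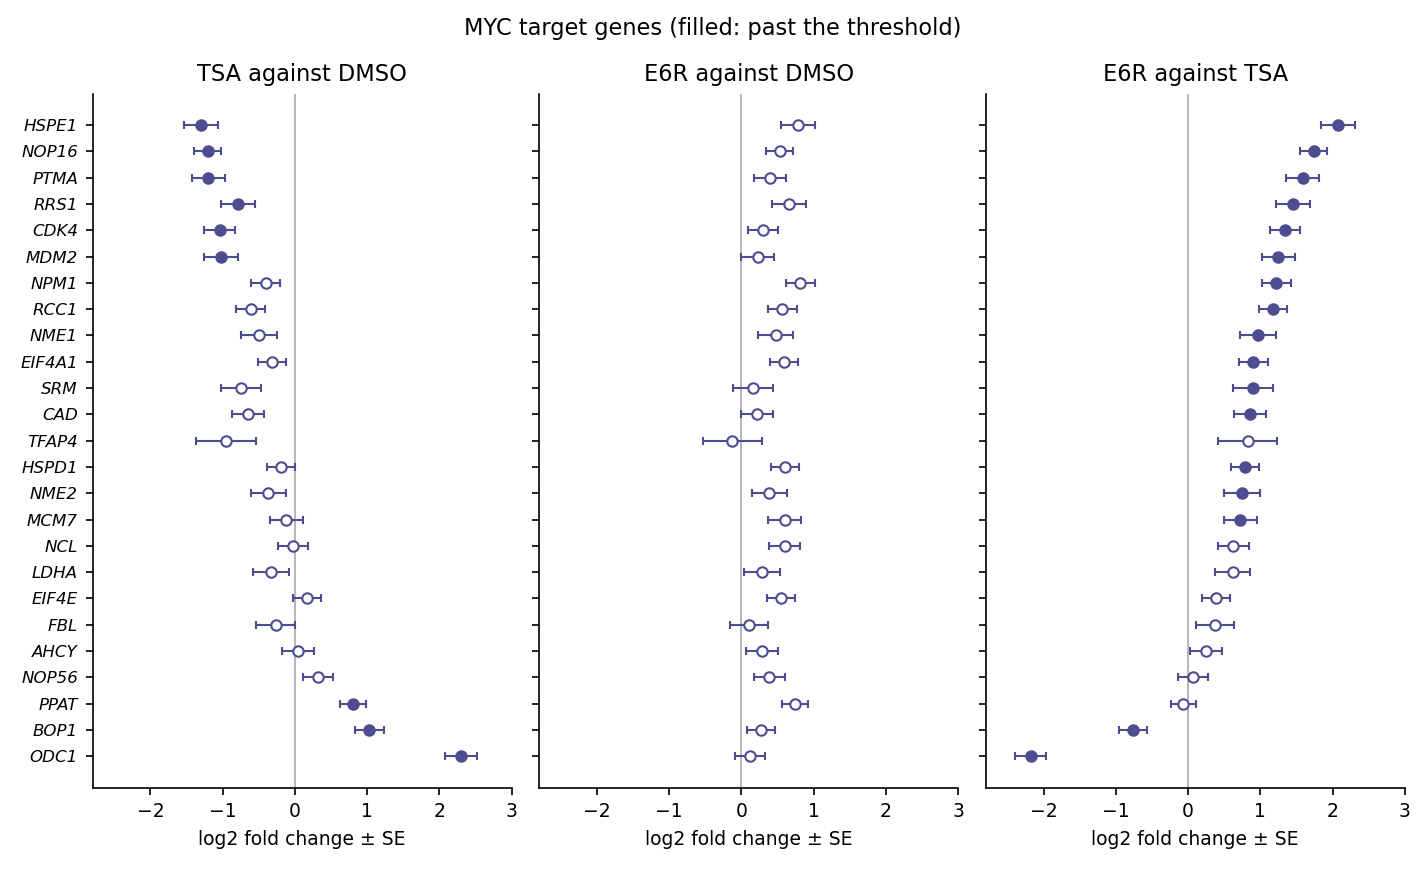
Fitted log2 fold change with its standard error (x axes) of 25 tested MYC target genes (rows) in 3 comparisons; filled points passed the test. Of the 25, 24 lie right of 0 for E6R against DMSO, none of them past the threshold, and 15 are higher past it for E6R against TSA. Among all tested protein-coding genes 42.4% were below 0 for E6R against DMSO.

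Of 8 genes described as repressed by MYCN, NGFR, a neurotrophin receptor gene (9.14 and 11.3 CPM under DMSO, 63.5 and 55.7 under TSA), and CLU rose under TSA (log2 2.54, edgeR adjusted p = 0.000922, and 1.55, 0.0325). None passed between E6R and DMSO in edgeR or DESeq2, and 1 had an unadjusted p under 0.05 in edgeR, beside 17.4% of all genes. Of the 8, 5 passed between E6R and TSA, beside 38.2% of all genes: NGFR (log2 -2.41, edgeR adjusted p = 0.000494), NDRG1 and CLU were among those lower, and DKK1 (1.67, 0.0414) among those higher. CLU lost its TSA call without any 1 of the 4 libraries (adjusted p 0.0565 to 0.183), and NDRG1 its call likewise (0.0597 to 0.395). DKK1 lost its call without TSA replicate 2 or E6R replicate 1 (up to 0.234).

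Of 10 genes of the MYC family and the MAX network, 5 rose under TSA, beside 16.2% of all genes, and none fell, beside 13.5%. MXD1, which competes with MYC proteins for MAX, rose most (5.95 and 8.22 CPM under DMSO, 28.6 and 24.99 under TSA; log2 1.91, edgeR adjusted p = 0.00399). MAX itself stood at 40.6 and 53.0 CPM under DMSO, 113 and 105 under TSA and 55.0 and 55.3 under E6R (TSA against DMSO log2 1.22, edgeR adjusted p = 0.00488). MXD1 and MAX were lower under E6R than under TSA (log2 -2.14 and -0.98, edgeR adjusted p = 0.00147 and 0.0068), the latter not past the threshold without TSA replicate 1 (0.0567). MYC was scarce and uneven, at 7.44 and 0.956 CPM under DMSO, 2.05 and 2.61 under TSA and 8.28 and 0.715 under E6R, and MYCL was at most 1.90 CPM in every library. Neither passed in any comparison. Of the 10, none passed between E6R and DMSO in edgeR or DESeq2. In edgeR 4 had an unadjusted p under 0.05, beside 17.4% of all genes.

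Of 12 genes that control MYCN transcription or protein stability in neuroblastoma, 7 passed between TSA and DMSO (58.3%, beside 29.7% of all genes), 1 higher and 6 lower. FBXW7, part of the ubiquitin ligase that marks N-Myc for degradation, rose (29.1 and 34.0 CPM under DMSO, 56.1 and 53.5 under TSA; log2 0.79, edgeR adjusted p = 0.0261), a call lost without any 1 of the 4 libraries. E6R against TSA gave 6 calls (50% of the 12, beside 38.2% of all genes), all higher, among them TBX2, a T-box transcription factor gene (208 and 163 CPM under DMSO, 19.6 and 18.6 under TSA, 204 and 145 under E6R; log2 3.19, edgeR adjusted p = 0.000323). None passed between E6R and DMSO in edgeR, where 1 had an unadjusted p under 0.05, beside 17.4% of all genes. DESeq2 called 1 of the 12, beside 338 of all 16763 genes. LIN28B, an RNA-binding protein that blocks let-7 maturation, stood at 54.6 and 45.1 CPM under DMSO, 5.70 and 6.09 under TSA and 66.5 and 67.9 under E6R (TSA against DMSO log2 -3.08, E6R against TSA 3.51, both past the threshold in all 22 alternatives). HDAC1, an enzyme that TSA inhibits, rose under TSA from 66.3 and 51.8 CPM to 154 and 159 (log2 1.41, edgeR adjusted p = 0.00267) and was at 74.3 and 78.2 under E6R. ALK, 13981 kb from MYCN on the same arm, was at 1.06 and 6.89 CPM under DMSO, 10.6 and 12.6 under TSA and 1.07 and 3.27 under E6R; it was lower under E6R than under TSA (log2 -2.38, edgeR adjusted p = 0.041), a call lost without TSA replicate 1, TSA replicate 2 or E6R replicate 1 (adjusted p up to 0.173).

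The genes whose levels over the 6 libraries ran most like MYCN included DCTN6, BRIX1, EEF1E1 and DNMT3A. Likeness was the root mean square difference of log2 CPM, centred per gene, taken over 7514 genes that averaged at least 20 CPM, and it was 0.131 to 0.178 for these 4. For DDX1 the nearest were ZNF638, ITCH, SSX2IP, PKN2 and LCOR, at 0.0338 to 0.0609. DDX1 ranked only 909th in likeness to MYCN, MYCNOS 2124th, NBAS 5240th and GACAT3 7306th, so none of the adjacent genes was among those nearest to MYCN.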

How the data were processed

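RNA of single SK-N-BE(2)-C cells was measured with Seq-Well S3 in 2 libraries each of DMSO, TSA and E6R. The authors deposited raw UMI counts per gene and barcode, and per the submitters' processing notes STARsolo 2.7.9a and GRCh38 were used; the strand rule and annotation are not given in the sources used here. A barcode counted as a cell if it had 500 or more genes and no more than 20% mitochondrial UMIs, but no doublet caller was run. Counts were summed per library over cells. Low counts were filtered and sums scaled by TMM, and all 6 libraries were fitted with edgeR 4.0.16 (quasi-likelihood test, Benjamini-Hochberg adjusted p of 0.05 over all 16763 tested genes) in R 4.3.3. Fold changes come from this fit. DESeq2 1.42.0 was an alternative, beside other filters, scalings, thinned sums, cell-cycle phases and left-out libraries. The scripts were tested on simulated data, in which all genes had the same spread. There 10% to 11% of 2-fold changes and 78% to 90% of 4-fold changes were called, depending on the comparison. Few genes were changed there, whereas edgeR called 29.7% of all genes between TSA and DMSO and 38.2% between E6R and TSA. The adjusted threshold is stricter when fewer genes change, so these rates may not carry over to those comparisons. A difference that did not pass is still not shown to be absent. Positions and gene types come from GENCODE 29 on GRCh38. Shares of cells have 95% Clopper-Pearson intervals, and a count of 0 is given the limit of 3 counts; both cover counting error only. Cell-cycle phase came from scanpy 1.11.5 after thinning cells to 1000 UMIs, with 60.4% to 86.0% of cells called G2M, so phases are read as scores.

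The genes and lists were chosen with earlier results of these data known. The text names all 6 genes, and MYC, MYCL, MAX, ODC1, ALK, LIN28B and HDAC1 whatever their result. It names the 3 largest called rises and falls, at a mean of 5 CPM or more, within 5 Mb of MYCN, and the 2 largest called rises and falls of each other list. The genes nearest in pattern to MYCN and DDX1 are the 5 with the smallest root mean square difference. Some genes that these rules pick are not reported here. Summed mesenchymal markers ran from 802 to 3317 CPM over the 6 libraries, and epithelial markers from 12.8 to 63.7.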

Additional observations from a re-analysis of the deposited data

How the results depend on the processing

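Of 1491 alternative values for single genes, 1254 kept their direction and side of the threshold, 191 lost a call, 19 gained one and 27 changed sign. Between TSA and DMSO, where 3 of the 6 genes, 12 neighbours and 9 MYC targets passed, cells thinned to 1000 UMIs gave 1 and 4 for the first pair of lists, cells called G1 gave 1, 1 and 4 for all lists, and cells called S gave 0 and 4. Cells of 1000 to under 2000 UMIs gave 0 and 3 and barcodes under 500 genes 0 and 5; these 2 settings were chosen after seeing the data. Without the low-count filter 19 neighbours passed. Between E6R and DMSO, where 0 passed, the fit without the filter gave 2 of the 6, 10 neighbours and 3 targets, and DESeq2 gave 2, 3 and 3. Between E6R and TSA, where 5, 12 and 17 passed, a minimum of 300 genes gave 3 of the 6, dropping the deepest 5% of cells 2, thinned cells 1, G1 2, S 3, cells of 1000 to under 2000 UMIs 1 and small barcodes 2. For neighbours, sums thinned to the smallest library gave 7, thinned cells 6, G1 3, S 6, cells of 1000 to under 2000 UMIs 3 and small barcodes 5, and G1 gave 10 targets.

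Leaving out 1 library gave 0 to 4, 0 to 1 and 1 to 4 of the 6 genes in the 3 comparisons, in the order above, 1 to 18, 0 to 0 and 5 to 13 neighbours, and 2 to 10, 0 to 0 and 8 to 18 targets. The log2 ratio of MYCN to DDX1 between TSA and DMSO ran from -0.50 to 0.0859, and the difference in the thinned share of MYCN cells from -12.5 to -9.24 points. Unthinned, that share difference was 1.97 points.

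The replicate numbers were not shown to pair the libraries: deviations of same-numbered libraries correlated at 0.0519, 0.448 and 0.249. With a replicate block 4, 1 and 5 of the 6 genes, 16, 1 and 13 neighbours and 11, 0 and 18 targets passed.

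Some signs turned, and the cause was not tested. DDX1 between TSA and DMSO was 0.0047 in G1. MYCNOS between E6R and DMSO was 0.14 without the filter, 0.18 in S, 0.00295 in cells of 1000 to under 2000 UMIs and from -0.29 to 0.33 without 1 library. MYCNOS between E6R and TSA, 0.82 and past the threshold in cells, was -0.0472 in small barcodes, and GACAT3 ran from -1.55 to 0.0559 without 1 library. MYC between E6R and DMSO was -0.0583 by total counts, -0.0814 with the block, -0.20 without the deepest cells, -0.25 in thinned cells, -0.69 without DMSO replicate 2 and from -2.42 to 2.35 over all left-out libraries. Without 1 library MYC ran from -1.75 to 1.32 between TSA and DMSO, and from -1.62 to 1.85 between E6R and TSA. Between E6R and DMSO MAX was -0.00487 in thinned cells, -0.12 in G1 and -0.11 in S, and ODC1 -0.00976 by total counts, -0.0274 thinned, -0.10 in G1, -0.13 in S and -0.0118 in cells of 1000 to under 2000 UMIs. ALK ran from -1.86 to 1.09 there without 1 library. FAM49A rests on 3 to 64 UMIs a library.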
